A study of Mus musculus with 46 samples.

Results

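Oriens-lacunosum moleculare (OLM) interneurons of the mouse hippocampus were divided by 1 transcript, Pvalb, which encodes the calcium-buffering protein parvalbumin. The cells were chosen by their Pvalb read counts alone. Any cell with at least 1 read assigned to Pvalb was placed on the Pvalb-detected side, and any cell with 0 Pvalb reads on the Pvalb-undetected side, whichever driver line it came from. This rule put 16 of 46 cells on the Pvalb-detected side (34.8%, exact Clopper-Pearson 95% interval 21.4 to 50.2) and 30 on the Pvalb-undetected side. Each library was made from the cytosol of 1 neuron, aspirated through the recording pipette, of animals at postnatal day 21 to 30. All 46 cells were labelled as OLM cells that passed quality control. Of the Pvalb-detected cells, 10 came from an Sst-Cre and 6 from an Htr3a-Cre driver line, and of the Pvalb-undetected cells, 13 and 17 did. The driver limits each line as a model, since Cre acts only in cells in which the gene that drives it has been active: the somatostatin gene Sst, or Htr3a, which encodes a serotonin receptor channel. Every cell is a sample of its own and no animal is named, so each side stands as 1 sample. No p-value is therefore given, SDs are between cells, and intervals cover counting error alone.

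Parvalbumin is best known from fast-spiking basket and axo-axonic cells, which inhibit the soma and axon initial segment of pyramidal cells. Fast spiking rests on potassium channels of the Kcnc family, which repolarise the membrane quickly, together with sodium channels of the axon and P/Q-type calcium channels at the release sites. OLM cells are a different class: their somata lie in stratum oriens, they release GABA together with somatostatin, and they inhibit the distal dendrites of pyramidal cells. Low levels of parvalbumin have long been described in part of the OLM population, so the division asks which other transcripts differ between OLM cells with and without it.

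Among the Pvalb-detected cells, Pvalb itself (chromosome 15, 78191114 to 78206400, minus strand, GRCm38, protein-coding) had between 18 and 2949 reads, with a median of 655.5. In counts per 1000000 assigned reads (CPM) this was 1.83 to 188, with a median of 56.3. These values chose the cells and are a description only. The highest were Htr3a line replicate 11 with 188 CPM, Sst line replicate 3 with 165 CPM and Sst line replicate 8 with 126 CPM. A group of 6 cells lay between 52.2 and 90.5 CPM, and 4 Sst-line cells lay between 19.9 and 31.4 CPM. The 3 cells just inside the threshold were all from the Htr3a line: replicate 15 with 130 reads (8.14 CPM), replicate 10 with 146 reads (7.85 CPM) and replicate 22 with 18 reads (1.83 CPM). All cells outside it had 0 reads, which in libraries of 3391829 to 31386369 reads allows up to 0.884 CPM in the shallowest and 0.0956 CPM in the deepest (3 reads of the total). After each library was thinned to 3000000 reads, all 16 cells still held a Pvalb read.

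**Figure D1:**
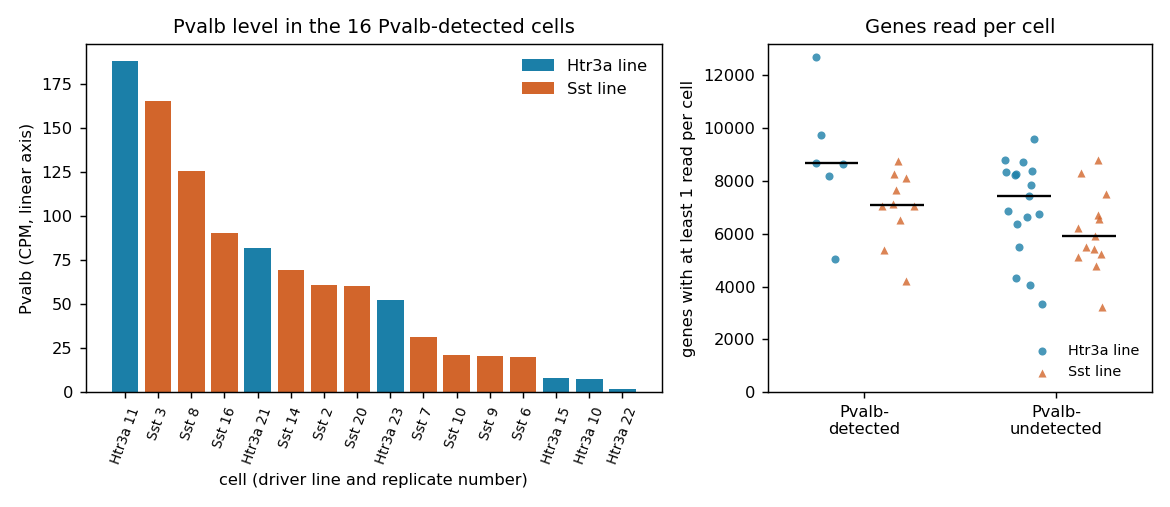
Left, Pvalb in CPM on a linear axis for each of the 16 Pvalb-detected cells, coloured by driver line; values run from 188 CPM in Htr3a line replicate 11 to 1.83 CPM in Htr3a line replicate 22. Right, number of genes with at least 1 read in every cell, by side and driver line, where horizontal bars are medians; the Pvalb-detected median is the higher one in each line and the sides overlap.

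The driver-line mix of the sides had overlapping intervals. Sst-line cells made up 62.5% of the Pvalb-detected cells (35.4 to 84.8) and 43.3% of the Pvalb-undetected cells (25.5 to 62.6). Seen from the lines, 10 of 23 cells of the Sst line held Pvalb reads (43.5%, 23.2 to 65.5) and 6 of 23 of the Htr3a line did (26.1%, 10.2 to 48.4). At a threshold of 10 CPM, 13 cells remained on the Pvalb-detected side, 10 of the Sst line and 3 of the Htr3a line. Because the mix is unequal, the main differences below are also given within the Htr3a line (6 Pvalb-detected against 17 Pvalb-undetected cells) and within the Sst line (10 against 13). Whether the lines differ in these values was not tested.

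Read depth was close on both sides. Pvalb-detected cells had 5639490 to 22689768 assigned reads with a median of 15823224, and Pvalb-undetected cells had 3391829 to 31386369 with a median of 15885591. The number of genes with at least 1 read was higher in Pvalb-detected cells, which had 4225 to 12693 genes with a median of 7870.5, against 3225 to 9586 with a median of 6659.5 in Pvalb-undetected cells. The difference of 1211 genes is smaller than the SD between cells of 1819. It was 1236 within the Htr3a line, 1162.5 within the Sst line and 1123.5 after thinning to 3000000 reads, but 448.5 when only cells with at least 10 CPM of Pvalb were kept on the Pvalb-detected side.

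3 libraries stood apart. Htr3a line replicate 10, a Pvalb-detected cell, held 10909 CPM of the haemoglobin transcripts Hba-a1 and Hbb-bs, against at most 292 CPM in any Pvalb-undetected cell, and had the most genes (12693, against 9741 in the next Pvalb-detected cell). Without it the median number of genes was 7629 in Pvalb-detected cells and the difference between the sides was 969.5. Htr3a line replicates 4 and 20, both Pvalb-undetected, held 4 and 24 reads of Gad1, which encodes a GABA-synthesising enzyme, where the next-lowest cell held 1634. Replicate 4 also held 13314 CPM of oligodendrocyte and 1383 CPM of astrocyte genes, the highest sums of any cell. The highest Kcnc2 level given below came from replicate 4, and those of Pnoc and Scn1a from replicate 20. The OLM label was checked against its markers: Sst, the somatostatin gene, exceeded 10 CPM in 16 of 16 Pvalb-detected and 30 of 30 Pvalb-undetected cells, whereas the OLM marker Chrna2, a subunit of nicotinic receptors, had reads in 4 of 16 and 12 of 30. Transcripts of microglia, the resident immune cells, were high in many libraries and are set beside the results they touch.

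Gene levels were compared as log2(CPM + 1), and a difference is the mean over Pvalb-detected cells minus the mean over Pvalb-undetected cells. Genes with a mean of at least 0.5 over all cells were kept, 11195 besides Pvalb, and a difference of at least 1 or at most -1 is called past the fold. Of these, 1855 genes were higher by at least 1 in Pvalb-detected cells, which is 16.6%, and 612 were lower by at least 1, which is 5.47%. By any amount, 62.4% were higher and 37.6% were lower. The median difference of all 11195 genes was 0.24, and it moved to -0.16 when genes detected and driver line were covariates and to -0.09 when mean CPM were compared in place of mean log values. Counts of genes past the fold are read against these shares, and differences are given beside the number of cells with reads.

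The fast-spiking channel genes as a list lay near no difference, and their counts past the fold lay near the shares of all genes. Of 17 such genes, 15 passed the filter. Their median difference was 0.05, against 0.24 for all genes, with 8 higher and 7 lower in Pvalb-detected cells. Past the fold were 3 higher genes, Kcns3, Scn8a and Cacna1a, and 1 lower gene, Kcnc2. As shares of 15 these counts lie near the 16.6% and 5.47% of all genes. The list median was -0.61 within the Htr3a line and 0.44 within the Sst line, so the lines went opposite ways. It was 0.38 when cells under 10 CPM of Pvalb were left out.

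Kcns3, a silent potassium channel subunit that alters the gating of partner channels, had the largest difference of the list. Its level was 0 to 692 CPM in Pvalb-detected cells, with a median of 130, and 0 to 365 CPM in Pvalb-undetected cells, with a median of 1.89. The ranges overlapped, but 12 of 16 Pvalb-detected cells lay above the Pvalb-undetected median and 2 lay above every Pvalb-undetected cell. Reads were present in 13 of 16 cells (81.2%, 54.4 to 96.0) against 18 of 30 (60%, 40.6 to 77.3). On the log2(CPM + 1) scale the means were 5.52 ± 3.48 and 3.05 ± 3.30 (SD, 16 and 30 cells), a difference of 2.47 that is smaller than either SD. It was 2.41 within the Htr3a line and 2.81 within the Sst line, 1.85 with genes detected and line as covariates, and 1.55 as a log2 ratio of mean CPM. Its reads summed over each side gave 202 CPM (exact Poisson 95% interval 200 to 204) and 83.1 CPM (82.3 to 83.9). These intervals treat pooled reads as independent and leave out the spread between cells, so they do not measure the difference between the sides.

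Within the Sst line the Kcns3 median was 165 CPM in Pvalb-detected cells and 0 CPM in Pvalb-undetected cells, where 6 of 13 held a read. In the Htr3a line all 6 Pvalb-detected cells held a Kcns3 read, with a median of 130 CPM, against 12 of 17 Pvalb-undetected cells with a median of 5.18 CPM. Htr3a line replicate 10 was the low cell there, at 0.537 CPM. The 3 Pvalb-detected cells listed at 0 for Kcns3 were Sst line replicates 3, 14 and 20.

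Scn8a encodes the sodium channel alpha subunit that is concentrated at the axon initial segment and nodes. It was present in every Pvalb-detected cell, at 24.7 to 479 CPM with a median of 129, and ran over 0 to 632 CPM in Pvalb-undetected cells with a median of 50.3. No Pvalb-detected cell was low: all 16 exceeded 10 CPM, against 21 of 30 Pvalb-undetected cells, yet the highest cell of all was Pvalb-undetected. The means were 6.91 ± 1.21 and 4.85 ± 3.04, a difference of 2.06, with 1.33 within the Htr3a line and 2.57 within the Sst line. Leaving out any 1 cell kept it between 1.89 and 2.21. As a log2 ratio of mean CPM it was 0.53, and 5 of 30 Pvalb-undetected cells had 0 reads of Scn8a.

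Cacna1a, the pore-forming subunit of P/Q-type calcium channels that drive transmitter release, had 0 to 574 CPM in Pvalb-detected cells with a median of 51.3, and 0 to 312 CPM in Pvalb-undetected cells with a median of 20.7. The sides overlapped widely, with 1 Pvalb-detected cell, Sst line replicate 8, above all Pvalb-undetected cells. The means were 5.22 ± 2.25 and 3.99 ± 3.07, a difference of 1.23 that came to 1.88 within the Htr3a line and 0.44 within the Sst line. It was 0.42 with genes detected and line as covariates and 0.97, under the fold, without Sst line replicate 8.

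The Kcnc genes, the family most closely tied to fast spiking, differed in direction among themselves. Kcnc2 was read in every cell, at 3.51 to 758 CPM in Pvalb-detected cells with a median of 293, and at 4.84 to 1390 CPM in Pvalb-undetected cells with a median of 366. Its means were 7.42 ± 2.16 and 8.44 ± 1.43, a difference of -1.02, with -1.09 within the Htr3a line and -0.93 within the Sst line. The 2 lowest cells were on opposite sides, and the difference shrank to -0.67 without Sst line replicate 8 and to -0.87 without Htr3a line replicate 10. Kcnc1, the subunit most often used as a companion of parvalbumin, was read in 15 of 16 and 24 of 30 cells. Its mean difference was 0.65 while its median was 35.9 CPM in Pvalb-detected and 58.1 CPM in Pvalb-undetected cells, so the direction depended on the summary. Kcnc4 differed by -0.94, with -0.60 within the Htr3a line and -0.96 within the Sst line.

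**Figure D2:**
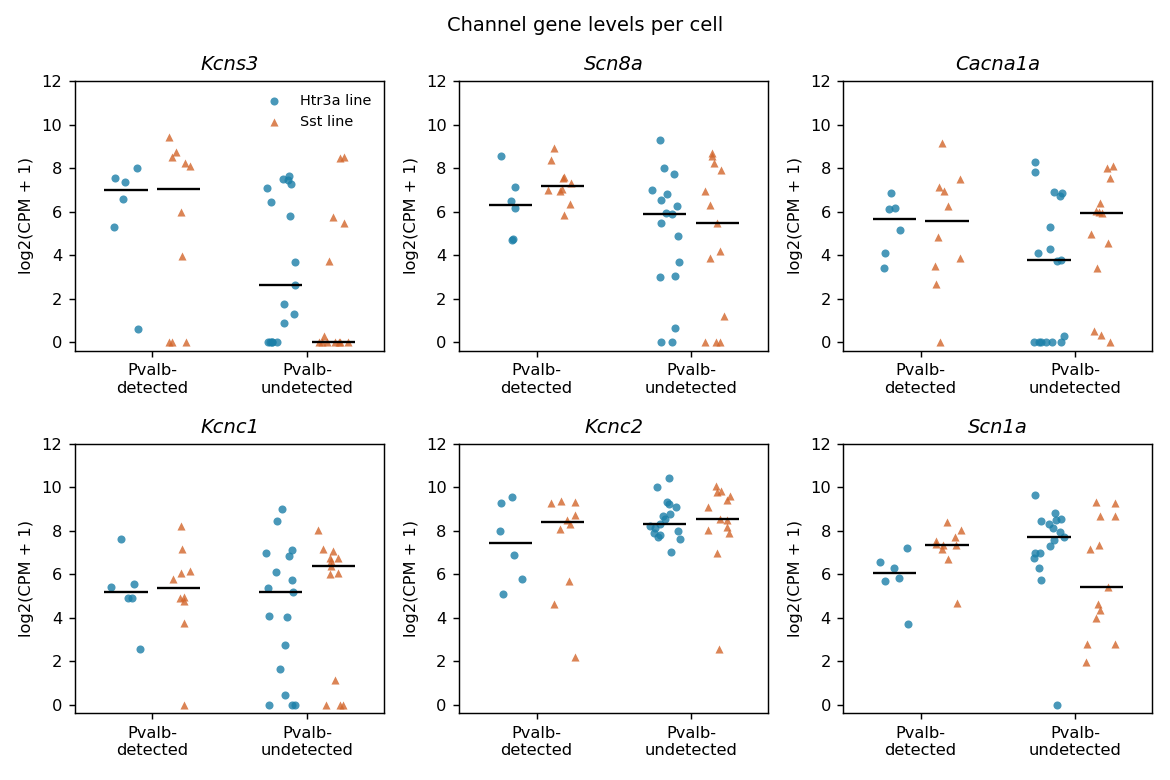
Level of 6 channel genes in every cell as log2(CPM + 1), by side and driver line; each point is 1 cell and horizontal bars are medians of the plotted values. All 16 Pvalb-detected cells carry Scn8a, Kcns3 is at 0 in 3 of them, and Kcnc2 is lower by 1.02 on average in Pvalb-detected cells, with wide overlap in each panel.

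Among the low-threshold Kcna potassium channels, which set the firing threshold near the axon initial segment, Kcna2 differed by -0.92 and Kcna6 by -0.97, both lower within each line and under the fold. Kcna1 differed by 0.43 over both lines, by -0.61 within the Htr3a line and by 1.25 within the Sst line. Exons of Kcna6 overlap those of another gene over 39.6% of their bases, so its reads may be shared. Their beta subunits diverged between the lines. Kcnab1 differed by -0.22 over both lines, by -2.15 within the Htr3a line and by 1.68 within the Sst line. Kcnab3 differed by 0.87 over both lines, by -0.41 within the Htr3a line and by 1.96 within the Sst line. Kcnab2 differed by -0.65, with 0.36 within the Htr3a line and -0.68 within the Sst line.

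Scn1a, the sodium channel whose loss impairs parvalbumin cells in mice, had nearly equal means, 6.72 ± 1.24 in Pvalb-detected cells and 6.67 ± 2.43 in Pvalb-undetected cells, a difference of 0.05. It ran over 12.1 to 334 CPM with a median of 144 in Pvalb-detected cells, and over 0 to 791 CPM with a median of 157 in Pvalb-undetected cells. Beside these near-equal means, the lines had opposite values, -1.39 within the Htr3a line and 1.34 within the Sst line. Of the fast-spiking list, 2 members could not be compared: Scn4b had 0 reads in all 46 cells, and Lrrc38, an auxiliary subunit of calcium-activated potassium channels, was read in 0 of 16 and 2 of 30 cells.

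**Figure D3:**
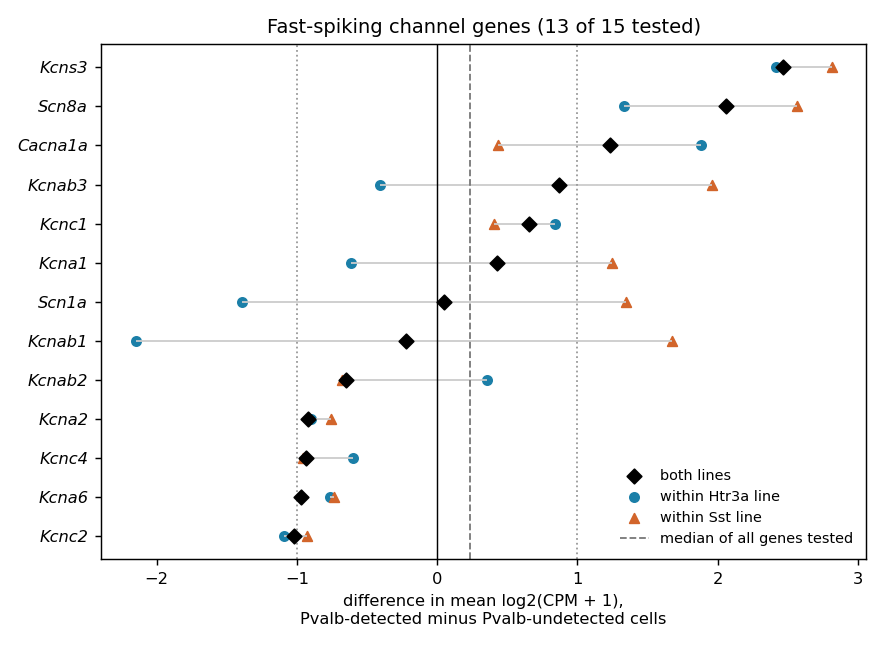
Difference in mean log2(CPM + 1), Pvalb-detected minus Pvalb-undetected cells, for 13 of the 15 fast-spiking channel genes that passed the filter; diamonds are all cells, circles the Htr3a line and triangles the Sst line, dotted lines mark -1 and 1 and the dashed line the median of all genes, 0.24. Kcns3 and Scn8a lie past 1 in each line, while Scn1a and Kcnab1 have opposite signs in the lines.

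Taking the leading channels jointly, Kcns3 and Scn8a both exceeded 10 CPM in 12 of 16 Pvalb-detected cells and in 11 of 30 Pvalb-undetected cells. With Cacna1a added, 10 of 16 and 10 of 30 cells qualified. These genes had been picked by their differences between the same cells, so the joint counts are a description only and add no support. Of the 16 fast-spiking genes with a read in any cell, a Pvalb-detected cell held reads of 9 to 15, with a median of 12, and a Pvalb-undetected cell 6 to 15, with a median of 11.5. Counted at 10 CPM, the median was 9 on each side. The 3 Pvalb-detected cells without Kcns3 held 56.2 to 332 CPM of Scn8a and 120 to 180 CPM of Cacna1a. The medians of all Pvalb-detected cells were 129 and 51.3 CPM. These 3 cells held reads of 10 to 11 of the 16 fast-spiking genes.

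Channel genes outside the fast-spiking list showed single members past the fold and few shared trends. All 8 of the other sodium channel genes were lower in Pvalb-detected cells, with a median of -0.42 (0.03 within the Htr3a line and -0.69 within the Sst line), and 2 were past the fold. Over all genes, 37.6% were lower by any amount and 5.47% by at least 1. Fgf13, an intracellular sodium channel partner, was read in 8 of 16 and 19 of 30 cells and differed by -2.17. It was -4.01 within the Sst line but 0.82 within the Htr3a line. Scn3b, an auxiliary beta subunit, differed by -1.09 and was lower within each line (-1.27 within the Sst line).

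Of 25 other potassium channel genes, 4 were higher by at least 1 and 2 were lower by at least 1, with a median of 0.20. These counts lie near the shares of all genes, 16.6% and 5.47%, and the median of all genes was 0.24. Kcnj9, a G protein-gated inward rectifier subunit, was higher by 1.48, with 3.15 within the Htr3a line and 0.54 within the Sst line. Kcnt1, a sodium-activated channel, was higher by 1.37 (1.54 and 1.31 within the Htr3a and Sst lines). Kcnd2, the A-type channel subunit, was higher by 1.36 on the mean log scale and read in 11 of 16 against 9 of 30 cells, but was lower, at -0.24, as a log2 ratio of mean CPM. Of 4 HCN channel genes, which carry the hyperpolarisation-activated current seen as a sag in OLM cells, none passed the fold: Hcn2 differed by -0.08 and Hcn3 by -0.78.

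Of 11 other calcium channel genes, 4 were higher and 1 was lower by at least 1, against 16.6% and 5.47% of all genes. Cacnb3, an intracellular beta subunit, had a difference of -1.38, with -1.29 within the Htr3a line and -1.54 within the Sst line. Cacna2d2, an auxiliary subunit of presynaptic calcium channels, was higher by 1.28 (0.86 and 1.75). Cacna1d, an L-type channel, was higher by 1.24 over both lines, but this was -0.34 within the Htr3a line and 2.29 within the Sst line.

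Transcripts that accompany parvalbumin in basket cells were mostly scarce on both sides. Of 27 such genes listed, 15 passed the filter, with a median of 0.22, and 3 were past the fold, all higher. Over all genes the median was 0.24 and 16.6% were higher by at least 1. Tac1, the substance P precursor, was read in 1 of 16 and 1 of 30 cells, Syt2, a fast calcium sensor for release, in 2 and 1, and Pthlh, a parathyroid hormone-like peptide, in none. Erbb4, the neuregulin receptor, was read in 5 of 16 and 2 of 30 cells. These differences were not tested.

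The 3 higher ones were Mef2c, a transcription factor needed for parvalbumin cell development in mice, and the neurofilament genes Nefl and Nefm, which build the axonal cytoskeleton. Mef2c was read in 13 of 16 and 17 of 30 cells, with medians of 45.5 and 0.283 CPM, and differed by 1.93 (1.25 within the Htr3a line and 2.65 within the Sst line). Its log2 ratio of mean CPM was 0.28, and the highest cell, at 733 CPM, was Pvalb-undetected. Nefl had medians of 138 and 58.0 CPM and differed by 1.91 (1.11 within the Htr3a line and 2.64 within the Sst line). Nefm had medians of 109 and 68.3 CPM and differed by 1.68 (0.64 and 2.24). The exons of Nefl and Nefm overlap each other, over 32.8% of Nefl and 19.2% of Nefm, and the counting is not stated to use strand, so these are not independent readings. The metabolic regulator Ppargc1a differed by 0.65 over both lines, by -0.31 within the Htr3a line and by 1.42 within the Sst line. The release protein gene Vamp1 differed by 0.82, with -0.96 within the Htr3a line and 2.12 within the Sst line, and Cplx1 by 0.07.

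Perineuronal nets, the matrix that coats many parvalbumin cells, were represented by 8 of 13 genes, with a median of 0.62. Acan, the proteoglycan by which nets are usually stained, had reads in none of the 46 cells. Hapln4, a link protein of nets, was the only member past the fold (1.57), with -1.01 within the Htr3a line and 3.46 within the Sst line. Over all genes the median was 0.24, and 16.6% were higher and 5.47% lower by at least 1. With genes detected and line as covariates the median of the net genes was -0.13, and that of all genes -0.16. None of the 16 other calcium-binding protein genes passed the fold. Calb1, which encodes calbindin, differed by -0.52 (-0.29 within each line), with medians of 69.8 CPM in Pvalb-detected and 328 CPM in Pvalb-undetected cells.

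Transcripts that define OLM cells were read on both sides. Sst ran over 1848 to 103850 CPM with a median of 15087 in Pvalb-detected cells, and over 1274 to 101720 CPM with a median of 11542 in Pvalb-undetected cells. Reln, the extracellular matrix protein reelin, differed by -0.02 and Crhbp, the corticotropin-releasing hormone binding protein, by 0.81. Of the 8 OLM genes, 2 were lower by at least 1, Pnoc and Chrna2, and none was higher by at least 1. Over all genes, 5.47% were lower and 16.6% higher by at least 1. The list median was -0.26.

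Pnoc, the precursor of the opioid-related peptide nociceptin, had 0 to 469 CPM in Pvalb-detected cells with a median of 0, and 0 to 1626 CPM in Pvalb-undetected cells with a median of 40.0. The difference of -1.64 was seen within the Sst line and not within the Htr3a line. In the Sst line 3 of 10 Pvalb-detected cells and 10 of 13 Pvalb-undetected cells held a read, and the difference was -2.92. In the Htr3a line 4 of 6 and 10 of 17 did, with a difference of 0.11. Chrna2 was read in 4 of 16 cells (25%, 7.27 to 52.4) and 12 of 30 (40.0%, 22.7 to 59.4), shares whose intervals overlap, and differed by -1.49 (-0.51 within the Htr3a line and -2.06 within the Sst line). It exceeded 10 CPM in 1 Pvalb-detected cell, Htr3a line replicate 22, which had the least Pvalb, and in 9 Pvalb-undetected cells.

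Npy, the neuropeptide Y gene, went opposite ways in the lines. It had 0 to 11796 CPM in Pvalb-detected cells with a median of 211, and 0 to 5868 CPM in Pvalb-undetected cells with a median of 55.3, a difference of 0.98 over both lines. Within the Sst line it was read in 9 of 10 Pvalb-detected cells with a median of 642 CPM, against 7 of 13 Pvalb-undetected cells with a median of 33.5 CPM, a difference of 3.94. Within the Htr3a line it was read in 4 of 6 with a median of 61.7 CPM, against 17 of 17 with a median of 143 CPM, a difference of -2.73. The 2 Pvalb-detected cells with the most Npy, Sst line replicates 3 and 14, were among the 3 without Kcns3.

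Among the listed genes of the medial and caudal ganglionic eminences, 1 was higher and 1 lower by at least 1, both on the caudal list. Over all genes, 16.6% were higher and 5.47% lower by at least 1. The 6 measured genes of the medial ganglionic eminence, where most somatostatin and parvalbumin cells arise, had a median of -0.18, with -0.34 within the Htr3a line and 0.33 within the Sst line, and none passed the fold. Lhx6, the transcription factor that marks this lineage, was read in 13 of 16 and 26 of 30 cells and differed by -0.70 over both lines, by -1.69 within the Htr3a line and by 0.52 within the Sst line. Satb1 and Sox6, which act after it, differed by -0.56 and -0.67 and were lower within each line. Among 4 measured genes tied to the caudal eminence, Nr2f1 was higher and Npas1 lower. Nr2f1, a nuclear receptor expressed broadly in that eminence, had medians of 29.6 CPM in Pvalb-detected and 0 CPM in Pvalb-undetected cells, was read in 12 of 16 and 14 of 30, and differed by 2.21 (2.33 within the Htr3a line and 2.46 within the Sst line). Npas1 differed by -1.58, nearly all of it in the Sst line (-2.83, against -0.07 within the Htr3a line).

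Few inhibitory and synaptic genes were past the fold, where 16.6% of all genes were higher and 5.47% lower by at least 1. Of 10 genes listed under GABA synthesis and transport, 1 was past the fold. It was Dlx1, a homeobox factor of interneurons (1.13, with -0.59 within the Htr3a line and 2.61 within the Sst line). Gad1 and Gad2 differed by 0.20 and 0.04. None of 11 AMPA receptor genes or 9 GABA-A receptor genes passed the fold. Of 21 genes of the release machinery 1 was higher and 2 were lower by at least 1. Syn1, a synaptic vesicle protein, was among the lower ones (-1.18, with -2.37 within the Htr3a line and -0.22 within the Sst line).

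Respiratory transcripts were higher on the Pvalb-detected side by small amounts. Of 17 nuclear-encoded genes, 13 were higher, with a median of 0.65 and 2 past the fold, both subunits of cytochrome oxidase: Cox7c (1.10) and Cox4i1 (1.01). Over all genes, 62.4% were higher by any amount and 16.6% by at least 1. The differences of the 17 genes were larger within the Htr3a line (median 0.86) than within the Sst line (0.39). Without Htr3a line replicate 10, the haemoglobin-rich cell, the median was 0.55 and neither passed the fold. Of 13 mitochondrially encoded genes, 12 were higher, with a median of 0.76, or 0.59 without that cell, where 62.4% of all genes were higher by any amount. The list median was 1.42 within the Htr3a line and 0.31 within the Sst line, where the median of all genes was 0.30. Nearly all of their sequence words recur elsewhere in the annotation, so their levels are uncertain. Of 11 immediate early genes, Ier2 (1.63) and Arc (1.13) were higher and Egr1 (-1.03) was lower by at least 1. Over all genes, 16.6% were higher and 5.47% lower by at least 1. Egr1 was -0.51 without Sst line replicate 3.

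Microglial transcripts had the largest median difference of the 25 lists. All 9 microglial genes were higher in Pvalb-detected cells and 6 were past the fold, with a median of 1.54. Over all genes, 62.4% were higher by any amount and 16.6% by at least 1. The lysosomal protease gene Ctss was higher by 2.86, and the complement genes C1qb and C1qc by 2.85 and 2.71. The 9 genes summed to 11.3 to 10876 CPM per cell with a median of 1215 in Pvalb-detected cells, and to 0 to 8627 CPM with a median of 257 in Pvalb-undetected cells. At least 100 CPM were present in 14 of 16 and 20 of 30 cells, and reads of all 3 C1q genes in 13 of 16 and 14 of 30. The median sums were 1704 CPM in Pvalb-detected and 161 CPM in Pvalb-undetected cells of the Sst line, and 407 and 547 CPM in those of the Htr3a line, where the mean sums were 1877 and 1359 CPM. The median difference of the 9 genes was 0.57 within the Htr3a line and 2.83 within the Sst line. Within the Htr3a line Ctss was higher by 2.10, C1qc by 1.90 and C1qb by 1.55.

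With the microglial sum and line as covariates, Kcns3 differed by 2.39, Scn8a by 1.82, Nr2f1 by 2.56, Mef2c by 1.73 and Cacna1a by 0.69, under the fold. Mef2c is also expressed by microglia. The part of the microglial transcripts in the other differences was not tested. Median sums of the other cell types given here were closer over both lines. Oligodendrocyte genes had medians of 122 CPM in Pvalb-detected and 162 CPM in Pvalb-undetected cells, astrocyte genes 63.0 and 61.3 CPM, and glutamatergic genes 75.5 and 30.1 CPM. The glutamatergic medians were 92.48 and 38.98 CPM within the Htr3a line and 54.78 and 10.71 CPM within the Sst line. That sum was thus higher in Pvalb-detected cells of each line, whereas the microglial medians went opposite ways. The part of glutamatergic transcripts in the other differences was not tested either. Slc17a7, which loads glutamate into the vesicles of pyramidal cells, was read in 1 cell of each side, and Fibcd1 was the only glutamatergic gene past the fold (1.52). Vip, a peptide of other interneurons, was read in 1 of 16 and 0 of 30 cells.

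**Figure D4:**
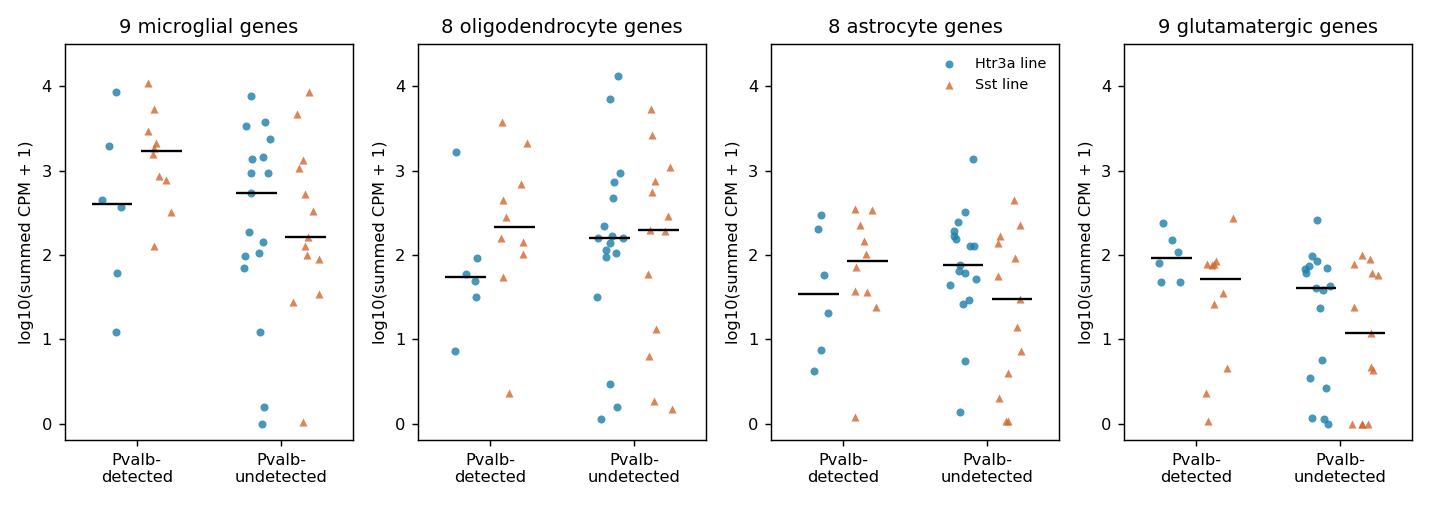
Summed CPM of marker genes of 4 other cell types in every cell, as log10(summed CPM + 1), by side and driver line; bars are medians of the plotted values. Within the Sst line the microglial sums sit higher in Pvalb-detected cells (median 1704 CPM) than in Pvalb-undetected cells (161 CPM), while within the Htr3a line the medians are 407 and 547 CPM.

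Over all genes, the named extremes were the 10 highest and 10 lowest differences whose direction held within each line and by mean CPM, taken from genes that had reads in 12 or more cells. The highest was Dclk2, a doublecortin-like kinase that binds microtubules. It was read in every Pvalb-detected cell, at 0.467 to 456 CPM with a median of 23.5, and in 14 of 30 Pvalb-undetected cells, at 0 to 217 CPM with a median of 0. The difference was 3.42, with 1.65 within the Htr3a line and 4.87 within the Sst line. No other gene of the 10 except Orc3, a subunit of the origin recognition complex, was read in all 16 Pvalb-detected cells.

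The other 8 had differences of 2.93 to 3.38. They were Etfb, an electron transfer flavoprotein, Aamdc, Tmem42, Gngt2, a G protein gamma subunit, Gmpr, a guanosine monophosphate reductase, Rgs10, a regulator of G protein signalling, Ckap4, a membrane protein of the endoplasmic reticulum, and Psmb10, a subunit of the immunoproteasome. Over 58.2% of Etfb exon bases overlap other genes, so its reads may be shared. Rgs10, Gngt2 and Psmb10 are also known from immune cells. With the microglial sum and line as covariates Rgs10 was at 1.98 (3.02 without them) and Gngt2 at 2.23 (3.05 without them), while Dclk2 was at 3.34 and Psmb10 at 2.65.

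The lowest was Prkcz, an atypical protein kinase C. It had 0 to 208 CPM in Pvalb-detected cells with a median of 0.702, and 0 to 389 CPM in Pvalb-undetected cells with a median of 88.9. It exceeded 10 CPM in 7 of 16 and 26 of 30 cells, so the sides overlapped at both ends, and differed by -3.07 (-2.20 within the Htr3a line and -3.67 within the Sst line). Gphn, which encodes gephyrin, the scaffold of inhibitory postsynapses, differed by -2.52 and exceeded 10 CPM in 3 of 16 and 18 of 30 cells. Camkv, a kinase-like vesicle protein, differed by -2.81, with medians of 2.13 and 63.9 CPM. Hnmt, which breaks down histamine, differed by -2.44, and Slc2a13, a myo-inositol transporter, by -2.52. The remaining ones were Ecd (-2.94), Fam43b (-2.88), Fam65b (-2.83), Fam189a1 (-2.52) and Ttc7b (-2.41).

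**Figure D5:**
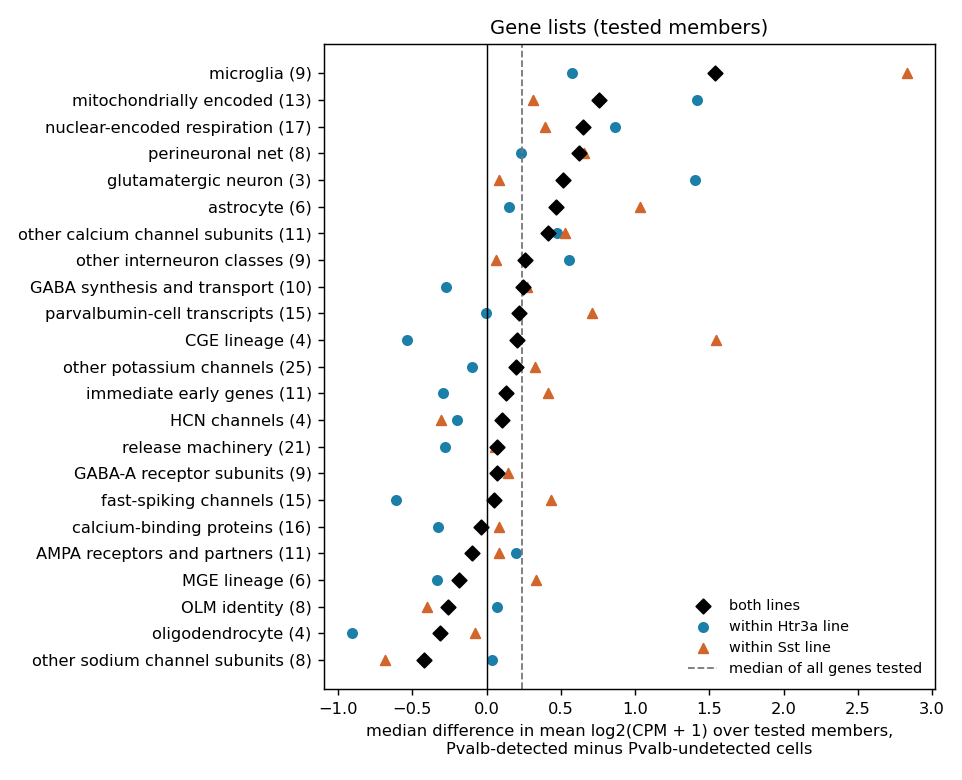
Median difference in mean log2(CPM + 1), Pvalb-detected minus Pvalb-undetected cells, for each gene list with at least 3 members that passed the filter (their number in brackets); diamonds are all cells, circles the Htr3a line, triangles the Sst line, and the dashed line is the median of all genes, 0.24. The microglial list stands highest (1.54), the fast-spiking list lies at 0.05, and the lines lie on opposite sides of 0 for the fast-spiking list.

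The lines can also be set side by side over the whole table. Within the Htr3a line 25.1% of genes were higher and 12.3% lower by at least 1, and within the Sst line 25.6% were higher and 10.1% lower. Of the 1855 genes higher by at least 1, 1664 had that sign in each line (14.9% of all genes) and 755 were higher by at least 1 in each line too (6.74%). Of the 612 lower genes, 505 had that sign in each line (4.51%) and 158 were lower by at least 1 in each (1.41%). Kcns3, Scn8a and Nr2f1 belonged to the 755, and Cacna1a and Kcnc2 did not.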

How the data were processed

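Single-cell RNA sequencing libraries of 46 mouse OLM cells were analysed, 23 from each driver line. The authors deposited raw read counts per gene, by symbol (22800 genes) and by Ensembl identifier. Per the submitters' processing notes, Trimmomatic, STAR and featureCounts were among the tools and GRCm38 was the build. Tool versions, annotation release and strandedness were not given in the sources used here. The deposited normalized table is a linear signal: 100% of its values lay within 0.1% of the count over 1 factor per cell (0.144 to 2.09). No molecular identifiers are named, so the Poisson intervals count reads and not molecules. All intervals cover counting error alone.

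The table by symbol was used. Of 1035 library pairs, 0 were identical. Counts were scaled to 1000000 per cell (CPM) and taken as log2(CPM + 1), with a filter at a mean of 0.5. Each cell is 1 sample and no animal is named, so no test was run. Shares carry exact Clopper-Pearson intervals. Alternatives were within-line values, 10 CPM of Pvalb, thinning to 3000000 reads, covariates by least squares, a pseudocount of 10, TMMwsp (edgeR 4.0.16) and poscounts (DESeq2 1.42.0) factors, medians, ratios of mean CPM, and leaving out each cell. The calculation was checked on simulated counts. Python 3.11.15 and R 4.3.3 were used.

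The members, the 25 lists and the rules were chosen with earlier results of these data known. The rule for named genes takes every member of the fast-spiking, OLM and medial eminence lists, up to 3 members with the largest difference from every other list, and the 10 highest and 10 lowest genes that had reads in 12 or more cells and 1 sign within both lines and by mean CPM, predicted and sex-linked genes left out. Some genes that this rule names are not reported here. Other genes are named as members of a list, after their values were seen. Coordinates and overlaps come from GENCODE M21 on GRCm38.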

Additional observations from a re-analysis of the deposited data

Results flagged for a closer look

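Within each line the 15 tested fast-spiking channel genes, Pvalb and the number of genes detected were searched for a cell set apart from the other Pvalb-detected cells, by the gap to the nearest cell over the whole range (Dixon's critical value). Over 34 groups of values, 3 cells stood apart. The critical value flags about 1 in 20 groups by chance where values are normally distributed. Groups with cells at 0 are not of that kind, so the rate here is not known. Kcnab3, for example, was read in 2 of 6 Pvalb-detected cells of the Htr3a line. Kcnab3, a potassium channel beta subunit, was at 6.44 on the log2(CPM + 1) scale in Htr3a line replicate 15, where the next Pvalb-detected cell of that line was at 0.767. Kcns3 was at 0.62 in Htr3a line replicate 10, the haemoglobin-rich cell, where the next cell was at 5.30. Scn1a was at 4.66 in Sst line replicate 16, the Pvalb-detected cell with the fewest genes, where the next cell of its line was at 6.72.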

How the results depend on the processing

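No paired analysis was possible because each cell is a separate sample and replicate numbers were given in accession order, so they pair nothing. The count of genes higher by at least 1 in Pvalb-detected cells, 1855, was 2811 within the Htr3a line, 2871 within the Sst line, 921 with genes detected and line as covariates, 294 with a pseudocount of 10, 3816 from the deposited normalized values and 1173 by ratios of mean CPM. The count lower by at least 1, 612, was 1372 within the Htr3a line, 1130 within the Sst line, 1838 with those covariates, 141 with a pseudocount of 10, 1135 from the normalized values, 1713 by ratios of mean CPM, 974 by medians and 1101 when only cells with at least 10 CPM of Pvalb were kept. With any 1 cell left out the counts ran from 1662 to 2182 higher and from 526 to 749 lower, the fast-spiking median from -0.11 to 0.25 and the difference in genes detected from 969.5 to 1452.5. Without Htr3a line replicate 10 they were 1704 higher and 749 lower. The normalized values moved the median of all genes from 0.24 to 0.50.

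Of 114 named genes, 55 were past the fold, and 48 of these changed sign under no alternative run. Within the Htr3a line, 6 had the other sign: Pnoc (0.11), Fgf13 (0.82), Cacna1d (-0.34), Hapln4 (-1.01), Dlx1 (-0.59) and Arc (-0.30). By ratio of mean CPM, Kcnd2 did (-0.24). The cause was not tested. The count of 48 is partly set by how genes were named. The highest and lowest genes over the whole table were taken only if their sign held within each line and by mean CPM. Those genes could not change sign in those runs. Many of the others were named for having the largest differences of their list. The same count over all genes past the fold is not given, so 48 of 55 is a description only. The covariate of microglial transcripts and the removal of the 2 cells with the fewest Gad1 reads were chosen after seeing the data. Without those cells Kcns3 differed by 2.25 and Scn8a by 1.82. The median of all genes was then 0.14, with 1519 genes higher and 791 lower by at least 1. Only 6 Pvalb-detected cells of the Htr3a line stand behind its values, and thinning to 3000000 reads was run over both lines together.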
